A study of Mus musculus with 18 samples.

Results

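Natural killer (NK) cells from the spleens of mice in which the transcription factor gene Eomes had been deleted were compared across their last maturation step, from stage III to stage IV. Stage III cells carried CD27 and CD11b on their surface, and stage IV cells carried CD11b without CD27. The libraries were chosen by their labels: the 3 of Eomes-deleted stage III cells and the 3 of Eomes-deleted stage IV cells, 6 of the 18 libraries of the series. Bulk RNA was sequenced, and 14156 genes had enough counts to be tested. The series was made to ask which genes Eomes regulates at each maturation stage of NK cells.

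The Eomes-deleted mice, called KO here, were C57BL/6 and carried Ncr1-iCreERT2 KI/WT, a tamoxifen-inducible Cre recombinase placed in the Ncr1 gene. They also carried Rosa26YFPLSL, a yellow fluorescent reporter that Cre switches on, and Eomesfl/fl, Eomes alleles that Cre can cut. Mice 8 to 12 weeks old received tamoxifen for 3 days, so both KO groups share the Cre, the reporter, the drug and the deletion. The Ncr1 promoter is active in NK cells and in some other innate lymphoid cells, and the labels do not say that cells were sorted by the reporter. Spleens were pooled in 3 experiments. The number of mice in a pool is not given, nor is the experiment that each replicate number belongs to, so the spread between libraries may be partly technical. The WT cells used for comparison were labelled C57BL/6 and WT, with no statement on Cre, and whether they received tamoxifen is uncertain.

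NK cells are innate lymphocytes that kill infected or transformed cells with perforin and granzymes. In the mouse spleen they mature from cells with CD27, through cells with CD27 and CD11b, to cells with CD11b alone. This last step is known for the gain of circulation receptors such as S1PR5 and CX3CR1 and of the receptor KLRG1, and for the loss of IL-7 receptor and of early factors such as TCF1. Eomes and T-bet (Tbx21) are T-box transcription factors that drive NK cell development, and ZEB2 is a repressor that acts late in it.

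Some of the 6 libraries stood apart. A count was found for 14824, 21454 and 16536 genes in KO stage III replicates 1, 2 and 3, and for 18228 to 27912 genes in KO stage IV. The 10 genes with the most counts held 17.0%, 10.6% and 20.6% of a KO stage III library and 13.1% to 15.9% of a KO stage IV library. Actb, the beta-actin gene, alone took 5.65%, 3.07% and 9.87% in stage III and 3.27% to 3.92% in stage IV. The median gene's SD of log2(CPM + 1) within a group was 0.401 in KO stage III and 0.188 or less in each of the other 5 groups. KO stage III replicate 2 had the highest sums of B cell, myeloid, dendritic cell, and mast and basophil markers of the KO libraries, but not of T cell or plasma cell markers. The summed level of 7 mast cell and basophil markers was 130 CPM (the count scaled to a common library total) there and 4.42 CPM or less in the other 5 KO libraries, and Mcpt8 and Prss34, basophil proteases, were at 21.99 and 68.7 CPM there and at 0.696 CPM or less in the others. The 17 myeloid markers summed to 25.3, 117 and 63.4 CPM in KO stage III and to 17.6, 18.1 and 32.7 CPM in KO stage IV, and the 12 B cell markers to 71.7, 336 and 107 CPM against 23.7, 27.4 and 55.1 CPM. Ms4a1, a gene that defines B cells, had 0 counts in KO stage III replicates 1 and 3 and in KO stage IV replicate 1. Total counts ran from 18684350 to 25147639. Results are therefore given beside the values without KO stage III replicates 1 and 3, which leaves 1 stage III library whose spread is borrowed from the other groups, or without replicate 2.

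**Figure D1:**
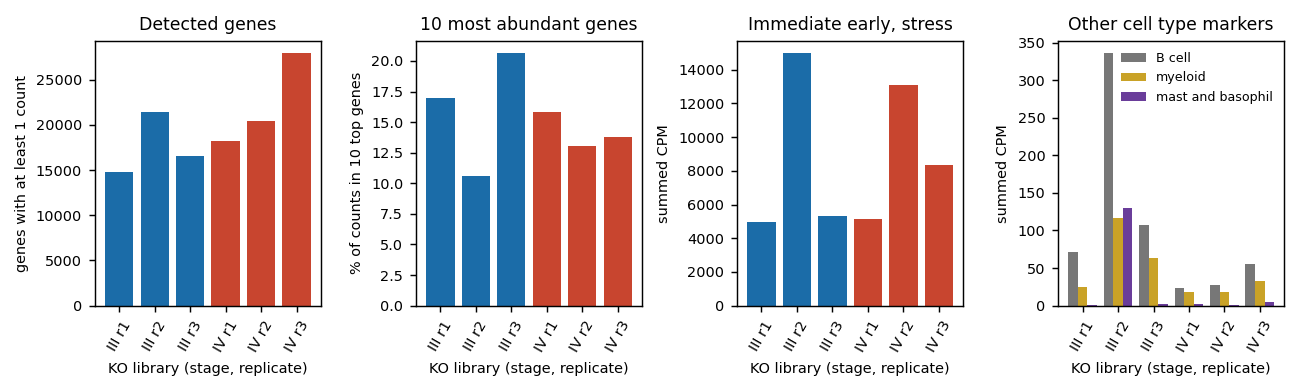
Each bar is 1 KO library, stage III in blue and stage IV in red in the first 3 panels: genes with at least 1 count, percent of counts in the 10 most abundant genes, and the CPM sum over 23 immediate early or stress genes; the last panel gives the summed CPM of B cell, myeloid, and mast and basophil markers. KO stage III replicate 2 stands above the other libraries in all 3 marker sums, and replicates 1 and 3 have the fewest detected genes of stage III.

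The targeted gene and the genes of the sorting gate came first. Eomes was at 159.9, 155 and 136 CPM in KO stage III and at 121, 109 and 89.8 CPM in KO stage IV, below every WT library of the same stage (250 to 287 and 237 to 275 CPM). It fell within the KO cells by 0.68 ± 0.15 on the log2 scale (SE, n = 3 libraries per stage; edgeR's quasi-likelihood test, adjusted p = 0.00513), a call that ended without KO stage III replicates 1 and 3 together (-0.54), with only the KO libraries and with only the compared libraries (-0.68). Each SE and adjusted p of this fit uses a spread shared over the 6 groups. For KO stage III, the group with the widest spread, it may be too small. The Eomes counts cover the whole gene, and say nothing of the share of cells without a working allele. Cd27, part of the gate, was at 376, 322 and 309.7 CPM in stage III and at 47.1, 29.7 and 35.1 CPM in stage IV. Itgam, which encodes CD11b, was at 92.7, 298 and 83.6 CPM in KO stage III, where replicates 1 and 3 lie far below replicate 2 and below the WT stage III libraries (389.7 to 469 CPM), and at 486, 719.6 and 710 CPM in KO stage IV. Both stages were sorted as positive for CD11b protein, and gate genes are no finding of the comparison. NK cell markers were high throughout: Ncr1, the gene of NKp46, was at 1956, 1660 and 1402 CPM in stage III and 2187, 1964 and 1955 CPM in stage IV, and Klrb1c, the gene of NK1.1, at 2606, 2024 and 2392 and 3311, 2997 and 2934 CPM. Neither passed (edgeR adjusted p = 0.826 and 0.332). The CPM of Klrb1c was higher in every stage IV library than in any of stage III, which does not replace the test. Klrb1c was called in 2 of 29 alternative fits.

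From stage III to stage IV 2509 of the 14156 tested genes changed in KO cells at an adjusted p under 0.05, or 17.7%. Of these 896 were higher (6.33% of tested genes) and 1613 lower (11.4%) in stage IV, and 954 changed by at least 2-fold (6.74%). The median log2 fold change of all tested genes was 0.03. Fold changes were scaled by edgeR's trimmed mean of M values, while the CPM values are per library total, so the 2 can differ in size. With library totals as the only scaling the split turned: 1161 were higher and 903 lower, and the median of all genes moved by 0.18 to 0.21. The count depends on single libraries, and most fits with 1 library left out also tested more genes. Fewer were called even without a library outside the comparison: without WT stage III replicate 2, 16330 genes were tested and the count was 1856. It was 5556 without KO stage III replicate 2 (2739 higher and 2817 lower), 1668 without KO stage III replicate 3, 1101 without KO stage IV replicate 2, 1275 without KO stage IV replicate 3, and 810 without KO stage III replicates 1 and 3 (228 higher and 582 lower). Called both without replicate 2 and without replicates 1 and 3, in the same direction, were 563 of the 2509 genes, or 3.98% of those tested (156 higher, 1.1%, and 407 lower, 2.88%), and 174 were called in all 29 alternative fits (41 higher and 133 lower). The 174 genes had to be tested in every fit, also where a minimum mean of 10 CPM left 7957 genes. With the 6 libraries fitted on their own, 224 genes were called.

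The 12 largest rises ran from 2.98 to 4.43 on the log2 scale and included surface receptors and enzymes. Cx3cr1, the receptor for fractalkine on circulating NK cells, was at 5.68, 26.2 and 5.02 CPM in KO stage III and at 246, 324 and 263 CPM in KO stage IV, 21.2-fold higher (log2 4.40 ± 0.63; adjusted p = 2.05e-04). All stage IV values lie far above all stage III values, of which replicate 2 is the highest. Klrg1, an inhibitory receptor of mature NK cells, was at 58.4, 109 and 102 CPM in stage III and 825, 869 and 914 CPM in stage IV, 8.49-fold higher (log2 3.09 ± 0.27; adjusted p = 9.87e-07). Entpd1, the gene of CD39, an enzyme that breaks down extracellular ATP, was at 4.62, 8.5 and 8.87 CPM and then at 68.5, 86.4 and 107 CPM (log2 3.37 ± 0.33). The choice of the 12 genes required stages without overlap, so the lack of overlap is no result. In both genes the spread among the stage IV libraries was small beside the step.

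Kcnj8, a potassium channel subunit, rose from 30.2, 23.2 and 13.1 CPM to 274, 305 and 319.5 CPM (log2 3.59 ± 0.30; adjusted p = 7.22e-07). Cma1, a chymase, was at 25.9, 48.3 and 87.1 CPM in stage III and 664, 606 and 694 CPM in stage IV (log2 3.37 ± 0.40). Ptgs1, the gene of cyclooxygenase 1 in prostaglandin synthesis, was at 1.56, 5.96 and 3.41 CPM and then 33.3, 33.4 and 39.1 CPM (log2 3.11 ± 0.28). As the choice of the genes required, the lowest stage IV library exceeds the highest stage III library in each of these 3. Gpx8, a glutathione peroxidase family member, and Cdc20b, its neighbour, rose together: Gpx8 was at 4.67, 7.48 and 6.95 CPM in stage III and 129.8, 112 and 146 CPM in stage IV (log2 4.15 ± 0.60), and Cdc20b at 9.498, 12.6 and 15.4 and 90.6, 129 and 121 CPM (log2 2.98 ± 0.22). Gpx8 lies inside the span of Cdc20b on the opposite strand, with no shared exon in the deposited gene models, and Gzma, the granzyme A gene, lies 2629 bases from Cdc20b on chromosome 13 (GRCm38). Without a known strand setting of the counting, reads from unspliced RNA of the pair cannot be told apart.

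Sept5, a septin, rose from 1.66, 2.94 and 1.08 CPM to 18.6, 27.3 and 23.3 CPM (log2 3.46 ± 0.32); its listed exons overlap those of Gp1bb, which had 243 counts in the 6 libraries against 1729. Rhpn1, a rhophilin, was at 0.201, 1.78 and 2.17 CPM and then 16.2, 21.4 and 30.6 CPM (log2 3.80 ± 0.51). Cyp17a1, a steroid hydroxylase, was at 0, 1.16 and 0.1204 CPM and then 11.2, 8.71 and 10.7 CPM (log2 4.43 ± 0.58). These are low in stage III in all 3 libraries and several times higher in every stage IV library. Gprc5a, an orphan receptor, also rose (log2 3.42 ± 0.78, adjusted p = 0.00689), from 0.0503, 2.23 and 0.682 to 9.099, 16.6 and 8.92 CPM.

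Among these 12 largest rises, the sizes of some rest on single stage III libraries. Without replicate 2 the log2 fold change was 5.41 for Cx3cr1, 6.86 for Cyp17a1 and 4.56 for Gprc5a; without replicates 1 and 3 it was 3.40, 3.13 and 2.38, the last no longer called. Without replicate 3 it was 4.08 for Cma1 and 4.42 for Rhpn1. Gprc5a was also lost with only KO libraries, with only the compared libraries and with voom, and Cyp17a1 with only the compared libraries (4.46).

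**Figure D2:**
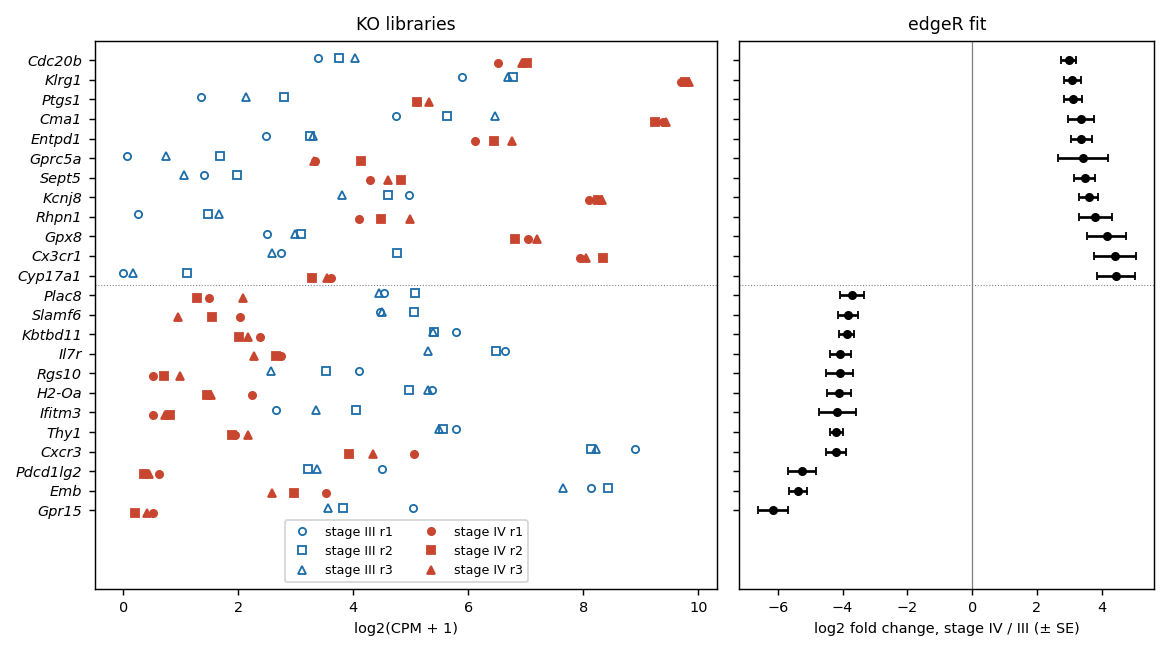
Left, log2(CPM + 1) of the 12 genes with the largest rise (above the dotted line) and the 12 with the largest fall in KO cells, 1 symbol per library (open blue for stage III, filled red for stage IV); right, the fitted log2 fold change of stage IV over stage III with its SE. For all 24 genes the 3 libraries of 1 stage lie above the 3 of the other, which the choice of the genes required.

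The 12 largest falls ran from -3.71 to -6.14 on the log2 scale. Emb, which encodes embigin, a partner of monocarboxylate transporters, was at 281, 344 and 198 CPM in KO stage III and at 10.5, 6.8 and 5.03 CPM in KO stage IV, 41.4-fold lower (log2 -5.37 ± 0.28; adjusted p = 8.01e-09). Thy1, the gene of the glycoprotein CD90, was at 54.5, 45.97 and 44.1 CPM and then 2.84, 2.704 and 3.48 CPM (log2 -4.19 ± 0.20; adjusted p = 3.76e-09). Every stage IV library of these genes is more than 10-fold below every stage III library. Il7r, the IL-7 receptor alpha chain, was at 99.2, 87.9 and 38.2 CPM in stage III, with replicate 3 the lowest, and at 5.73, 5.29 and 3.85 CPM in stage IV (log2 -4.07 ± 0.33). Slamf6, a receptor of the SLAM family, was at 21.1, 32.2 and 21.7 CPM and then 3.104, 1.91 and 0.941 CPM (log2 -3.84 ± 0.31). The stages did not overlap for either gene, which the choice of the genes required.

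Of the homing receptors, Cxcr3, the receptor for interferon-induced chemokines, was at 476, 280.5 and 296 CPM in stage III and 32.1, 14.1 and 19.4 CPM in stage IV (log2 -4.21 ± 0.30; adjusted p = 1.59e-07). Gpr15, a receptor known for homing of lymphocytes to the gut, was at 31.96, 13.2 and 10.8 CPM, highest in replicate 1, and then at 0.428, 0.159 and 0.327 CPM (log2 -6.14 ± 0.46). Gpr15 has the largest fitted fall of the 24 genes, and its size was -5.53 without replicate 1 and -5.46 without replicates 1 and 3. Pdcd1lg2, the gene of PD-L2, a ligand of PD-1, was at 21.7, 8.28 and 9.27 CPM and then 0.535, 0.278 and 0.368 CPM (log2 -5.26 ± 0.43, and -4.42 without replicates 1 and 3). Ifitm3, an interferon-induced membrane protein, was at 5.28, 15.5 and 9.19 and 0.428, 0.755 and 0.655 CPM (log2 -4.16 ± 0.56). H2-Oa, a chain of H2-O, which modulates peptide loading on MHC class II, was at 40.1, 30.4 and 38.5 CPM and then 3.75, 1.75 and 1.88 CPM (log2 -4.11 ± 0.37). In stage IV these last 3 genes are at or below 3.75 CPM in every library. Rgs10, a regulator of G protein signalling, fell by 4.09 ± 0.42, Kbtbd11 by 3.87 ± 0.24 and Plac8 by 3.71 ± 0.38 on the log2 scale. Of the 24 named rises and falls, 22 kept the call in every alternative fit that tested them. Among these, Sept5, Gpr15, Ifitm3 and Rgs10 were not tested with a minimum mean of 10 CPM.

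The region before the start of each of these genes was read for 2 motifs: the E-box CACCTG, which ZEB factors are known to bind, and the T-box element AGGTGTGA, which T-box factors are known to bind. Both strands were searched, and the motifs share the letters AGGTG of the E-box's other strand. RefSeq promoter sequences (GRCm38.p6) were matched for 7 of the 12 rises and 10 of the 12 falls, and the 250 bases before the start were searched. An E-box was found in 1 of the 7 rises and 2 of the 10 falls, and a T-box element in 1 of the falls, against 17.2% and 1.12% of all 32851 promoters of that length. A match is a description of the letters and not evidence of binding. The 4 promoters with a match are shown so that the letters around it can be read, with the motif in capitals, 5′ to 3′ on the strand of the gene. Emb lies on the plus strand (chr13:117220323-117220572), with E-boxes 166 and 68 bases before the start, and Cxcr3 on the minus strand (chrX:101734148-101734397), with 1 at 116 bases. Entpd1 lies on the plus strand (chr19:40612116-40612365), with an E-box at 245 bases, and Plac8 on the minus strand (chr5:100572206-100572455), with a T-box element at 249 bases.
Emb: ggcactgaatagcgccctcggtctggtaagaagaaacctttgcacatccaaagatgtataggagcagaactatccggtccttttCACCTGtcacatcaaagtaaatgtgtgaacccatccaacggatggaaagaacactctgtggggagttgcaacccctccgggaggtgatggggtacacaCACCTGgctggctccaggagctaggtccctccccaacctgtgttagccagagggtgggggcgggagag
Cxcr3: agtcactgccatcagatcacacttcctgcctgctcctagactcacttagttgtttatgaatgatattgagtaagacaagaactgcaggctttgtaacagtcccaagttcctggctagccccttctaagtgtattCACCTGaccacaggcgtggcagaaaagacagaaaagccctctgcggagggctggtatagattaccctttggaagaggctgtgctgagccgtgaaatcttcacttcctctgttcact
Entpd1: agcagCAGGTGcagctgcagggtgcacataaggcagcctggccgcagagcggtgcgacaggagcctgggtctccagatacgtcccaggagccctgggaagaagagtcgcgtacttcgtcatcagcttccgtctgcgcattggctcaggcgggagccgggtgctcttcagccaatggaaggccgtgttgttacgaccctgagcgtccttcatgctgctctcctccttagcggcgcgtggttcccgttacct
Plac8: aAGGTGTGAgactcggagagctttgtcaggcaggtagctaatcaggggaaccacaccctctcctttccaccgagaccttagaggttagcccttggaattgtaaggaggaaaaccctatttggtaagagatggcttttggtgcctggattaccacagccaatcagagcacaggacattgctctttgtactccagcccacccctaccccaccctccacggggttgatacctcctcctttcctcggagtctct

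Of the 35 tested NK transcription factors on the list 6 rose and 9 fell, beside 6.33% of all tested genes higher and 11.4% lower. Their median log2 fold change was -0.09, and -0.26 without KO stage III replicates 1 and 3. Zeb2, the late repressor, was at 59.6, 158 and 55.2 CPM in KO stage III, with replicate 2 far above replicates 1 and 3, and at 545, 515 and 506 CPM in KO stage IV (log2 2.40 ± 0.27; adjusted p = 1.43e-05, and log2 1.72 without replicates 1 and 3). Irf8, a factor of myeloid and NK cell differentiation, was at 201, 314 and 144 CPM and then 534, 861 and 702 CPM (log2 1.53 ± 0.21), and Prdm1, which encodes Blimp-1, at 42.5, 46.95 and 28.2 and 84.9, 122 and 103 CPM (log2 1.24 ± 0.20). All 3 are higher in every stage IV library than in any stage III library, which their choice by small p or by value favoured. The same holds for other genes named from the lists that way, so a lack of overlap there is no separate support. Tcf7, the gene of TCF1, was at 481, 482 and 384 CPM and fell to 108, 73.8 and 63.1 CPM (log2 -2.64 ± 0.19; adjusted p = 1.72e-07). Ikzf2, which encodes Helios, fell from 35.5, 44.99 and 27.5 to 17.9, 13.1 and 15.7 CPM (log2 -1.38 ± 0.13). Neither gene's stages overlap. Tbx21, the gene of T-bet, was at 162, 162 and 114 CPM in stage III and 212, 239.9 and 285 CPM in stage IV. Its log2 fold change of 0.58 ± 0.20 did not pass (edgeR adjusted p = 0.0593). The stages did not overlap in CPM, a description that does not replace the test. Tbx21 was called higher in 6 of 29 alternative fits. Zfp683, the gene of Hobit, a factor of tissue-resident lymphocytes, was at 5.98, 7.39 and 5.5 and 10.4, 8.79 and 5.73 CPM, and its groups overlap (log2 0.23 ± 0.28; adjusted p = 0.59).

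Of the 16 mature NK markers 14 rose, with a median log2 fold change of 1.498 against 0.03 for all tested genes, and of the 17 immature NK markers 14 fell, with a median of -2.55. Without KO stage III replicates 1 and 3, 13 mature markers rose and 1 fell (median 1.20) and 12 immature markers fell (median -2.56). Over all tested genes 6.33% were called higher and 11.4% lower with all libraries. These lists hold genes known for maturation and include the gate genes Itgam and Cd27. S1pr5, a sphingosine phosphate receptor that lets NK cells leave lymphoid organs, was at 82.9, 73.7 and 53.1 CPM in stage III and 374, 297 and 329.6 CPM in stage IV (log2 2.08 ± 0.14; adjusted p = 7.85e-08). Ly6c2, a surface protein of the Ly6 family, was at 279.7, 210.1 and 148 and 714, 719 and 556 CPM (log2 1.47 ± 0.30), and Spn, which encodes CD43, rose by 1.13 ± 0.12. Ccl5 and Itgax are the mature markers that did not pass. Ccl5, a chemokine among the most abundant RNAs, had a log2 fold change of -0.13 ± 0.24. For Itgax, the gene of CD11c, it was -0.44 ± 0.16, with a call as lower in 5 of 29 alternative fits. The sign of the Ccl5 value turned with library totals (0.11), without KO stage III replicate 3 (0.29) and without replicates 1 and 3 (0.74). Ctla2a, a protease inhibitor gene, was at 382, 273 and 302 CPM and then 49.1, 41 and 42.7 CPM (log2 -3.05 ± 0.19), and Cd7, a receptor of early lymphocytes, at 2743, 1825 and 2026 and 773, 581 and 600 CPM. Ly6e, a surface protein gene, was at 2999, 1879 and 3277 and 647, 454 and 529 CPM (log2 -2.55 ± 0.22, and -1.79 without replicates 1 and 3). Stage IV lies below stage III in every library of these genes. In bulk RNA fewer cells of a kind and less RNA per cell cannot be told apart.

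**Figure D3:**
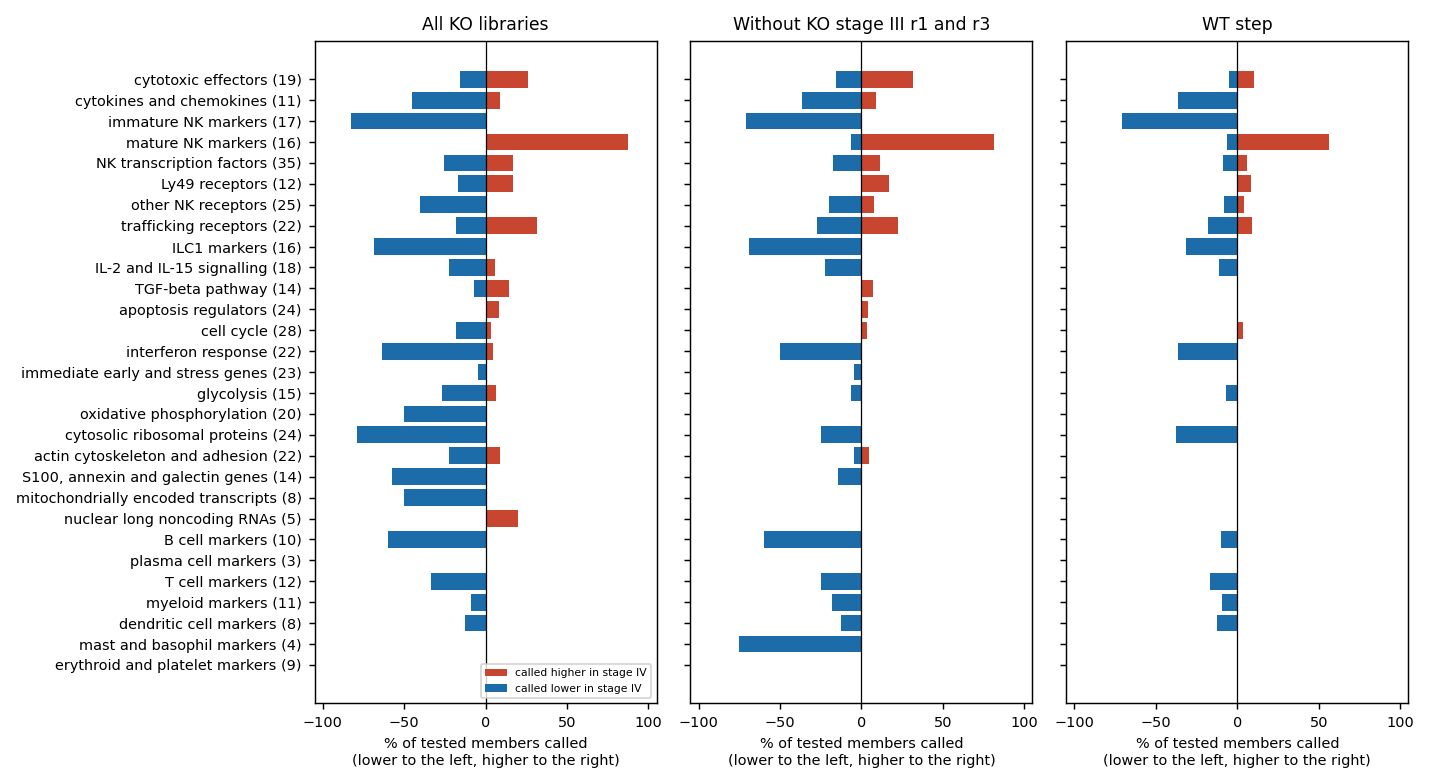
Percent of the tested members of each gene list (number tested in parentheses) called higher (red, to the right) or lower (blue, to the left) in stage IV, for the KO step with all libraries, for the KO step without KO stage III replicates 1 and 3, and for the WT step. Mature NK markers (14 of 16 higher) and immature NK markers (14 of 17 lower) stand out in all 3 panels, and the bars of oxidative phosphorylation are present only in the first.

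The killing machinery moved in both directions. Prf1, the perforin gene, was at 539.7, 919 and 349.7 CPM in KO stage III and 1997, 2650 and 2446 CPM in KO stage IV (log2 1.84 ± 0.20; adjusted p = 9.98e-06), and Gzmb, the granzyme B gene, at 609.8, 945 and 872 and 2225, 3609 and 3033 CPM (log2 1.68 ± 0.26). Neither gene's stages overlap. Gzma was at 7325, 4896 and 9843 CPM in stage III and 19220, 14430 and 15240 CPM in stage IV (log2 0.91 ± 0.24; adjusted p = 0.0164), and this call ended without KO stage III replicate 1 (0.85), without KO stage IV replicate 1 (0.76), with only KO or only compared libraries and with voom, and was 1.73 without KO stage III replicates 1 and 3. Gzmm, another granzyme, was at 60.5, 40.7 and 55.9 CPM and fell to 7.17, 5.88 and 8.39 CPM (log2 -3.09 ± 0.26; adjusted p = 6.33e-07). Gzmc was at 26.2, 14.6 and 9.55 and 2.89, 1.59 and 1.64 CPM (log2 -3.23 ± 0.39), and Tnfsf10, the death ligand TRAIL, at 15.7, 18.02 and 17.3 and 6.26, 6.601 and 6.75 CPM (log2 -1.57 ± 0.20). These 3 were lower in every stage IV library. Of the 19 cytotoxic effectors 5 rose and 3 fell, beside 6.33% of all tested genes higher and 11.4% lower. Their median log2 fold change was 0.03, and 0.05 without KO stage III replicates 1 and 3. The number that rose was 3 without KO stage III replicate 1 or KO stage IV replicate 1. Without KO stage III replicate 2, a fit with more calls over all tested genes too, 5 fell.

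Of the 11 tested cytokine and chemokine genes 5 fell and 1 rose, beside 11.4% of all tested genes lower and 6.33% higher. Their median log2 fold change was -0.79. Ltb, the lymphotoxin beta gene, was at 49.6, 64.3 and 21.2 CPM in KO stage III and 3.8, 3.78 and 5.16 CPM in KO stage IV (log2 -3.54 ± 0.57; adjusted p = 5.36e-04, lost with voom). Tnf was at 10.6, 25.2 and 19.6 and 3.91, 4.29 and 3.52 CPM (log2 -2.41 ± 0.38), and Lta, the lymphotoxin alpha gene, at 2.41, 10.9 and 5.34 and 0.749, 0.676 and 0.573 CPM (log2 -3.37 ± 0.46, and -4.04 without KO stage III replicates 1 and 3). The 3 genes are neighbours on chromosome 17, with 3060 bases between Ltb and Tnf and 1157 between Tnf and Lta. Csf2, the gene of GM-CSF, was at 10.2, 12.9 and 9.79 CPM and then 0.963, 1.43 and 1.19 CPM (log2 -3.36 ± 0.32), and Xcl1, a chemokine for cross-presenting dendritic cells, fell by 2.01 ± 0.54, a call that ended without KO stage IV replicate 1 (-1.76) or 3 (-1.78), without KO stage III replicates 1 and 3 (-2.25), with voom and with only the compared libraries. The chemokine gene Ccl9 rose (log2 2.34 ± 0.75, adjusted p = 0.0412), from 1.61, 19.4 and 3.73 to 46.1, 45.9 and 40.3 CPM, a call that ended in 17 of the 29 alternative fits. Its log2 fold change was 3.70 without KO stage III replicate 2 and 1.18 without replicates 1 and 3. Ifng, the interferon gamma gene, was at 489, 929.8 and 455 and 255, 546 and 398 CPM with overlapping stages (log2 -0.79 ± 0.37; adjusted p = 0.149).

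Markers shared with type 1 innate lymphoid cells (ILC1), relatives of NK cells that stay in tissue, fell. Of the 16 tested, 11 were lower, beside 11.4% of all tested genes. Their median log2 fold change was -2.09, and -1.88 without KO stage III replicates 1 and 3. Several stand on the immature list too, such as Il7r, and Cxcr3 and Gzmc are also described above. Il2ra, the IL-2 receptor alpha chain CD25, was at 8.69, 6.28 and 3.61 CPM in stage III and 0.428, 0.954 and 0.655 CPM in stage IV (log2 -3.31 ± 0.40). Tmem176a, a membrane channel gene, was at 34.8, 15.7 and 19.4 and 4.17, 2.54 and 4.17 CPM (log2 -2.89 ± 0.29, and -2.13 without KO stage III replicates 1 and 3). Both are lower in every stage IV library. Ctla4, an inhibitory receptor, was at 1.61, 2.67 and 1.97 CPM in stage III and at 0, 0 and 0.0818 CPM in stage IV, where 2 libraries have 0 counts. Cxcr6, a homing receptor, was at 40, 20.03 and 24.8 and 21.03, 9.07 and 9.45 CPM. Its log2 fold change was -1.31 ± 0.46, and -0.62 without KO stage III replicates 1 and 3. It did not pass (edgeR adjusted p = 0.0574), but was called lower in 6 of 29 alternative fits.

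Activating and inhibitory receptors were mostly lower where they changed. Cd160, a receptor for HVEM, was at 1158, 927 and 865 CPM in KO stage III and 335, 234 and 236 CPM in KO stage IV (log2 -2.06 ± 0.21; adjusted p = 4.28e-06). Tigit, an inhibitory receptor for nectin family ligands, was at 61.2, 106 and 112 and 16.9, 26.4 and 26.6 CPM (log2 -2.20 ± 0.26), and Cd226, the activating receptor DNAM-1 for the same ligands, at 87.2, 109 and 95.3 and 42.5, 30.3 and 31.7 CPM (log2 -1.67 ± 0.25). No library of stage IV reaches stage III in these genes. Of the 25 tested receptors 10 fell, and without KO stage III replicates 1 and 3, 2 rose and 5 fell; 6 fell without KO stage III replicate 1 and 5 without KO stage IV replicate 2. Among the 12 Ly49 receptors, near-identical genes whose reads the counting may split, 2 rose and 2 fell; without KO stage III replicate 2, 1 rose and 5 fell, and without replicates 1 and 3, 2 rose and 0 fell. Klra9 rose by 0.96 ± 0.20 and Klra7 fell by 0.83 ± 0.17, and both calls ended with only KO libraries or only the compared libraries, that of Klra7 also without KO stage III replicates 1 and 3. S1pr1, a sphingosine phosphate receptor for exit from lymphoid organs, fell while S1pr5 rose: it was at 179, 165 and 90.3 and 70.7, 55 and 55.7 CPM (log2 -1.42 ± 0.19). Of 22 trafficking receptors 7 rose and 4 fell, and 5 rose and 6 fell without KO stage III replicates 1 and 3; 4 rose without KO stage IV replicate 2. In IL-2 and IL-15 signalling 1 of 18 genes rose and 4 fell, but 5 rose and 6 fell without KO stage III replicate 2, and 0 rose and 4 fell without replicates 1 and 3. Over all tested genes 6.33% were called higher and 11.4% lower with all libraries. Without KO stage III replicate 2, 5556 of 16318 tested genes were called, so more calls there are not particular to these lists. With all libraries Socs2, a feedback inhibitor, fell by 1.86 ± 0.24 and the kinase gene Pim2 by 1.57 ± 0.28.

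Of the 22 interferon response genes 14 fell and 1 rose, beside 11.4% of all tested genes lower and 6.33% higher. Their median log2 fold change was -1.32, and -1.51 without KO stage III replicates 1 and 3. Usp18, an inhibitor of interferon signalling, was at 60.4, 76.1 and 75.8 CPM in stage III and 23.98, 25.5 and 25 CPM in stage IV (log2 -1.70 ± 0.16; adjusted p = 1.96e-06). Ifit1, which binds viral RNA, was at 33.2, 30.9 and 27.3 and 7.28, 6.76 and 5.402 CPM (log2 -2.42 ± 0.22). Oasl2, of the oligoadenylate synthetase family, was at 12.4, 12.9 and 4.98 and 1.61, 1.43 and 2.05 CPM (log2 -2.72 ± 0.32). The 3 stage IV libraries are close to each other and below all stage III libraries in these genes. Rtp4 was at 146, 73.9 and 108 and 42.1, 31.9 and 35.3 CPM (log2 -1.80 ± 0.24, and -1.03 without KO stage III replicates 1 and 3). The single member called higher, Stat2, a factor of interferon signalling, was at 9.197, 46.6 and 17.7 and 47.1, 54.7 and 61.2 CPM, a call that ended in 17 of the 29 alternative fits (log2 1.03 ± 0.32; 1.68 without KO stage III replicate 2 and 0.22 without replicates 1 and 3).

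In several of the next lists the median fall was smaller without the stage III libraries with few genes. Calls were fewer in that fit over all tested genes too, so a drop in calls is not particular to these lists. With all libraries 11.4% of all tested genes were called lower. Of 20 oxidative phosphorylation genes 10 fell (median -0.48). Without KO stage III replicates 1 and 3 edgeR called 0 of the 20, 1 had an unadjusted p under 0.05, and the median was -0.06. Leaving out 1 library gave 4 without KO stage III replicate 1, 3 without KO stage III replicate 3, 3 without KO stage IV replicate 2 or 3, and 6 without WT stage III replicate 2 or 3 or WT stage IV replicate 2. Library totals gave 4. Atp5e, an ATP synthase subunit, was at 487, 218 and 318 CPM in stage III and 238, 162 and 158 CPM in stage IV (log2 -1.09 ± 0.24, and -0.23 without KO stage III replicates 1 and 3). Of 24 cytosolic ribosomal protein genes 19 fell (median -0.87), and 6 without KO stage III replicates 1 and 3 (median -0.51). At an unadjusted p under 0.05 the counts were 20 and 18, and 9 of the 24 fell in the WT step (median -0.59). Rpl4 was at 3408, 3031 and 2529 and 1939, 1715 and 1771 CPM (log2 -0.91 ± 0.13), with no overlap, and was not called with only the compared libraries. Of 14 S100, annexin and galectin genes 8 fell (median -0.69), and 2 without KO stage III replicates 1 and 3 (median -0.21), where 7 had an unadjusted p under 0.05 against 8 with all libraries; 5 fell without KO stage III replicate 1 or 3 or KO stage IV replicate 2 or 3. Lgals3, the galectin-3 gene, was at 297, 164 and 238 and 50.4, 34.7 and 42.3 CPM (log2 -2.67 ± 0.26, and -1.95 without KO stage III replicates 1 and 3), and S100a4, a calcium-binding protein, at 70.6, 48.1 and 45.5 and 26.5, 21.4 and 18.8 CPM (log2 -1.49 ± 0.17). Of 28 cell cycle genes 1 rose and 5 fell, a share near the 17.7% of all tested genes. Without KO stage III replicates 1 and 3 the only call was 1 rise, while the median moved from -0.46 to -0.55 and 8 had an unadjusted p under 0.05, as with all libraries. The number that fell was 3 without KO stage III replicate 3, 2 without KO stage IV replicate 1 and 1 without KO stage IV replicate 2.

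Some lists of markers of other cells fell with the step, beside 17.7% of all tested genes called and 11.4% called lower. Of 10 tested B cell markers 6 fell, and 6 without KO stage III replicates 1 and 3; 3 fell without KO stage IV replicate 2. Cd79b, a B cell receptor chain that NK cells can also express, was at 17.04, 10.2 and 13.9 and 4.496, 3.78 and 5.402 CPM (log2 -1.80 ± 0.26, and -1.16 without KO stage III replicates 1 and 3). Cd74, the MHC class II invariant chain, was at 34.4, 211 and 66 CPM in stage III, with replicate 2 far above the others, and 10.3, 12.01 and 29.6 CPM in stage IV (log2 -2.70 ± 0.58; -1.88 without KO stage III replicate 2, -3.63 without replicates 1 and 3 and -3.30 without KO stage IV replicate 3; lost with only the compared libraries). Of 12 tested T cell markers 4 fell; the list summed to 586, 571 and 680 CPM in stage III and 363, 300 and 316 CPM in stage IV. Cd3g, a T cell receptor signalling chain, was at 27.5, 19.6 and 24.2 and 4.17, 2.19 and 6.71 CPM (log2 -2.66 ± 0.30), with no overlap. Of 11 tested myeloid markers 1 fell, and of 8 dendritic cell markers 1. Of 3 plasma cell, 4 mast and basophil, and 9 erythroid and platelet markers 0 were called. The part of other cells in the other results was not tested.

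The same step was read in WT cells, whose libraries are not shared with the KO step. In WT 449 genes changed, or 3.17% of those tested (108 higher, 0.763%, and 341 lower, 2.41%). Of the 108 that rose in WT, 92 (85.2%) rose in KO cells, with a median log2 fold change of 1.11 in KO and 1.07 in WT, and of the 341 that fell in WT, 308 (90.3%) fell in KO, with medians of -1.43 and -1.32. Armc7 was the single gene called in opposite directions. The 400 genes called in both and in the same direction are 89.1% of the WT calls and 15.9% of the KO calls, and the 2 steps' log2 fold changes had Pearson's r of 0.35 over the 14156 genes, which are not independent replicates. The WT count was 235 to 270 without any 1 of the WT stage III or IV libraries and 699 without KO stage III replicate 1. With voom it was 2526 and with only the compared libraries 1459, above the KO counts of 1561 and 224 in the same fits, so the order of the counts turned. The shares above hold for the fit to all libraries. The larger KO count is not a test of a larger step, since KO stage III has the widest spread of the 6 groups and the count moved as given above.

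**Figure D4:**
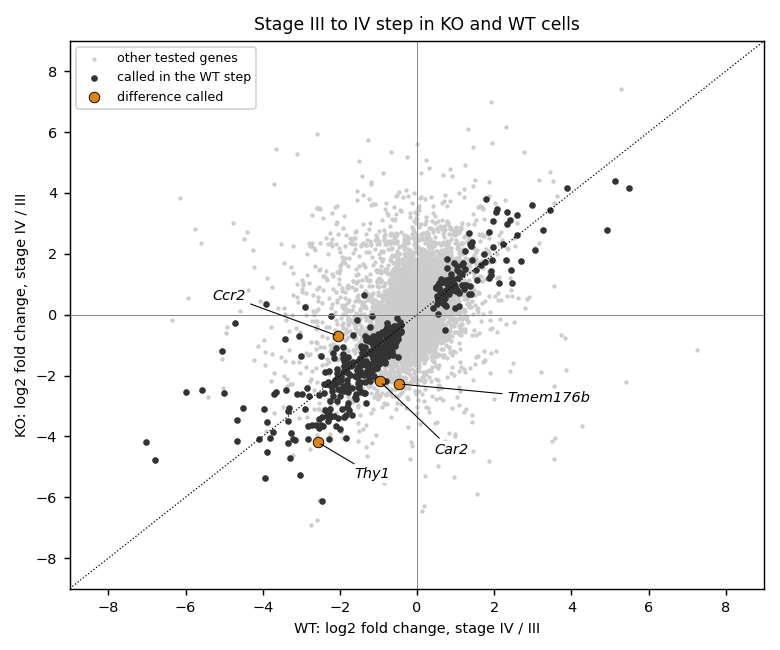
Each point is 1 of the 14156 tested genes, with the log2 fold change of stage IV over III in WT on the horizontal axis and in KO on the vertical axis; dark points are called in the WT step, orange points differ between the steps, and the dotted line marks equal change. Most dark points lie near or below the line, in the quadrants of like direction.

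The difference between the KO step and the WT step was itself tested, and 4 genes passed, 0.0283% of those tested. DESeq2 called 54 and voom 7, and 1461 genes (10.3%) had an unadjusted p under 0.05 in edgeR; without KO stage III replicate 2 the count was 2440. Ccr2, the receptor for the monocyte chemokine CCL2, was at 1521, 1377 and 1343 CPM in WT stage III and 321, 344 and 361 CPM in WT stage IV, a log2 fold change of -2.04 ± 0.12. In KO it was at 601, 599.5 and 450.1 CPM in stage III and 421, 361 and 364 CPM in stage IV (log2 -0.71 ± 0.11), so that the step was smaller by 1.33 ± 0.16 (adjusted p = 0.00387). The KO stage III libraries lie below all WT stage III libraries, and the stage IV libraries of the genotypes are close.

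Tmem176b, next to Tmem176a on chromosome 6 with 108 bases between them, went the other way. It was at 50.8, 34.8 and 34.8 CPM in KO stage III and 10.8, 7.83 and 9.82 CPM in KO stage IV (log2 -2.28 ± 0.19), and at 9.27, 8.43 and 9.63 and 5.63, 7.51 and 6.51 CPM in WT (log2 -0.47 ± 0.19), a difference of -1.81 ± 0.26 (adjusted p = 0.0188). Thy1 had a log2 fold change of -4.19 ± 0.20 in KO and -2.57 ± 0.18 in WT, a difference of -1.62 ± 0.26 (adjusted p = 0.0384). Car2, a carbonic anhydrase, was at 1837, 1470 and 1532 CPM in KO stage III and 441, 382 and 394 CPM in KO stage IV (log2 -2.19 ± 0.15), and at 1377, 1220 and 1138 and 652, 599.8 and 648 CPM in WT (log2 -0.97 ± 0.14), a difference of -1.22 ± 0.20 (adjusted p = 0.0397). For these 3 genes the fall was larger in KO. Of 28 alternative fits, the difference was lost in 2 for Ccr2 (without WT stage III replicate 1 and with only the compared libraries), 9 for Tmem176b (among them without KO stage IV replicate 2 or 3), and 17 each for Thy1 and Car2 (among them without KO stage III replicate 1 or 3 and without each WT stage II or III library).

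**Figure D5:**
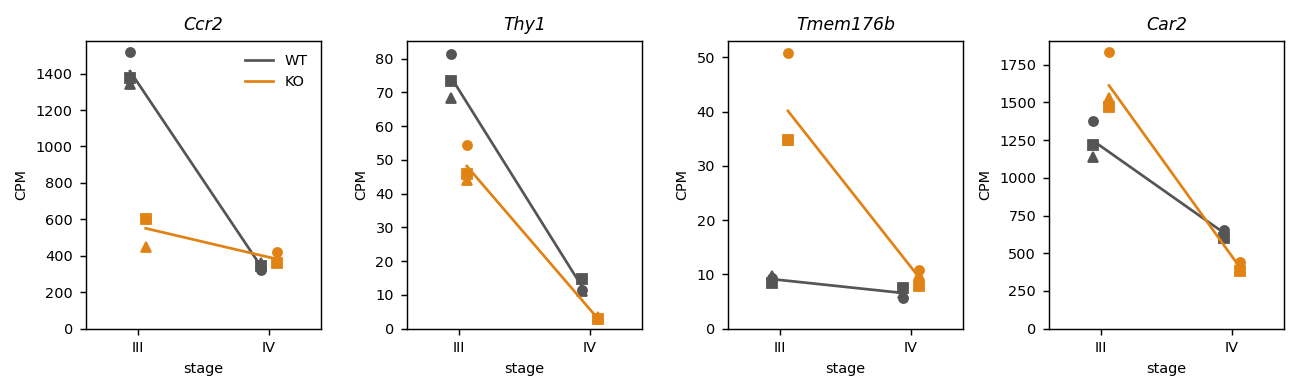
CPM of the 4 genes whose step differed between the genotypes, 1 symbol per library (circle, square and triangle for replicates 1, 2 and 3), with lines through the group means, WT in grey and KO in orange. The KO lines are flatter than the WT line for Ccr2 and steeper for Tmem176b and Car2.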

How the data were processed

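RNA of NK cells sorted from spleen was measured in 18 libraries, 3 for each of KO and WT at stages II, III and IV. Alignment used STAR 2.0.4 and counting used featureCounts 1.4.5 of the Subread package, by the submitters' processing notes. Genome build, read type and strand setting: not given in the sources used here. The deposited files list, per the file headers, a raw count of reads for each gene beside a CPM and an RPKM that the authors derived from it. Only the raw count was analysed, and the CPM values printed here were recomputed from it with the library's total. Gene positions follow the deposited files, which match GRCm38.

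The test was edgeR 4.0.16 (R 4.3.3), with its filter by group (14156 genes kept) and trimmed mean of M values scaling. All 18 libraries entered 1 quasi-likelihood fit by group, so that the spread was shared among the 6 groups. Contrasts were KO stage IV minus KO stage III, the same in WT, and their difference. Benjamini and Hochberg's adjustment ran over all tested genes, with calls at an adjusted p under 0.05. Unless a sentence names another tool, adjusted p-values come from edgeR. Standard errors were derived from the log2 fold change and the F statistic, which is an approximation, and the prior count was 0.125. The fit was tested on simulated data with the same spread for all genes and groups, so the wider spread of KO stage III was not covered. Alternatives were DESeq2 1.42.0, voom with quality weights in limma 3.58.1, other scalings and filters, subsets of libraries, a replicate block and leaving out each library.

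Members and the 29 gene lists (471 genes, 2 of them not matched by symbol) were chosen with earlier results of these data known. Genes were named by rule: Eomes, Cd27, Itgam and Tbx21; the 12 largest called rises and falls with a mean of at least 5 CPM, stages that do not overlap and an established symbol; up to 4 called members of smallest p of each list, and members by role; and called genes of the difference. Named after their values were seen were Ccl9, Stat2, Ctla4, Prdm1, Ly6c2, Ly6e, Cd7, Xcl1, Itgax, Rtp4 and the genes of the closing observations. For genes named by small p or after their values were seen, stages without overlap are a description and no added support. Lists are described by counts and medians, with no test of a list. Promoters were taken from RefSeq (GRCm38.p6). Counts cannot tell PCR copies from separate molecules.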

Additional observations from a re-analysis of the deposited data

Results flagged for a closer look

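For 4 genes the step from stage III to stage IV differed between KO and WT cells by the test of the difference itself, edgeR's interaction term. The difference of the log2 fold changes (KO minus WT) was 1.33 ± 0.16 for Ccr2 (adjusted p = 0.00387), the gene of a chemokine receptor that also marks monocytes. It was -1.81 ± 0.26 for Tmem176b (adjusted p = 0.0188), -1.62 ± 0.26 for Thy1 (adjusted p = 0.0384) and -1.22 ± 0.20 for Car2 (adjusted p = 0.0397). Over the 28 alternative fits the difference kept its sign for each gene, from 1.25 to 1.52 for Ccr2, from -1.99 to -1.41 for Tmem176b, from -1.75 to -1.35 for Thy1 and from -1.37 to -0.88 for Car2. The KO stage III libraries, which carry the widest spread, enter all 4 differences.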

How the results depend on the processing

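The number of genes called in the KO step was 224 with only the compared libraries, 650 with only the KO libraries, 1561 with voom, 810 without KO stage III replicates 1 and 3 together, and from 1101 to 5556 with 1 library left out. The WT step gave 752 genes with DESeq2, 1459 with only the compared libraries, 2526 with voom, 1022 without KO stage III replicates 1 and 3, and from 235 to 699 with 1 library left out. The difference between the steps gave 54 genes with DESeq2, 1 with library totals, 331 with no filter, 0 with only the compared libraries in edgeR, 7 with voom, and from 0 to 2440 with 1 library left out. The cause of these shifts was not tested. Fits with fewer libraries have fewer degrees of freedom, and their counts were lower in some cases and higher in others. The tested genes also differed. For the KO step they were 12680 with only the compared libraries, 13359 with only the KO libraries and 33645 with no filter. The KO count stayed within 1.5 times of 2509 with DESeq2 (3412), other scaling factors (2561), library totals (2064), a mean of 10 CPM (2371), no filter (2893) and a robust spread (2548).

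With the replicate block 3043 genes were called in the KO step. The deviations of same-numbered KO libraries correlated at 0.286, 0.391 and 0.0443, and KO stage III replicate 3 correlated best with KO stage IV replicate 1 (0.170), so pairing was not taken as shown. The labels do not say what a number marks. Replicate 1 titles are written differently from the others, and in the 4 groups of stages III and IV the immediate early and stress list summed to 4820 to 5132 CPM in replicate 1, 10690 to 14970 CPM in replicate 2 and 5306 to 13480 CPM in replicate 3. Whether a number tracks a batch was not tested beyond the block. The log2 fold change of Ccl5 (-0.13) turned to 0.11 with library totals and 0.74 without KO stage III replicates 1 and 3. It ran from -0.45 to 0.29 with 1 library left out. That of Ncr1 (0.10) ran from -0.0045 (without KO stage III replicate 2) to 0.20. Neither gene was called in the fit to all libraries, and Ccl5 was called lower in 1 of 29 alternative fits. Of 134 called genes whose alternatives were computed, 73 were called in every alternative that tested them, 61 lost the call in at least 1 and none changed sign. Precision is limited by 3 libraries a group, and for genes near 0 counts in a stage by counting error.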

Other observations

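The genes named next stand outside the gene lists and were chosen after their values were seen. All except Lst1 were called in all 29 alternative fits. Mcam, the adhesion molecule CD146, was at 8.39, 6.19 and 2.13 CPM in KO stage III and 34.6, 29.4 and 29.4 CPM in KO stage IV (log2 2.34 ± 0.29). Cmklr1, the receptor for the attractant chemerin, was at 3.92, 5.83 and 4.42 and 24.5, 25.97 and 26.1 CPM (log2 2.25 ± 0.27), and Camk2n1, an inhibitor of calmodulin-dependent kinase, at 2.92, 6.45 and 3.53 and 21.9, 19.1 and 18.1 CPM (log2 2.03 ± 0.23). Each is several times higher in every stage IV library than in any of stage III. Gpr183, a receptor for oxysterols that guides lymphocytes within lymphoid tissue, was at 27.7, 35.5 and 19.8 CPM in stage III and 4.55, 4.14 and 1.88 CPM in stage IV (log2 -3.13 ± 0.33). Crtam, a receptor of activated cytotoxic lymphocytes, was at 83.3, 82.8 and 48.4 and 19.3, 19.6 and 18.8 CPM (log2 -2.06 ± 0.20), and Ptger2, a prostaglandin E2 receptor, at 12.7, 9.44 and 11.96 and 3.16, 2.54 and 2.87 CPM (log2 -2.20 ± 0.24). These receptors are lower in every stage IV library, in a step where Ptgs1, an enzyme of prostaglandin synthesis, was higher.

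Klf4, a zinc finger transcription factor, was at 43.6, 54.4 and 71.9 CPM in KO stage III and 10.6, 10.5 and 14.9 CPM in KO stage IV (log2 -2.46 ± 0.37). Cxcl10, a ligand of CXCR3, was at 38.5, 34.5 and 18.9 and 3.85, 10.2 and 5.61 CPM (log2 -2.37 ± 0.44), so the RNA of the receptor and of this ligand fell in the same step. Lst1, 5999 bases from Ltb on chromosome 17, was at 5.03, 3.92 and 2.13 and 0.963, 0.358 and 0.573 CPM (log2 -2.72 ± 0.44), a call that ended with only the compared libraries.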
